A study of Mus musculus with 3 samples.

Results

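Apc, Axin1, Amer1, Dvl1 and Dvl2 encode proteins that work inside the cell between Wnt receptors and β-catenin. They were taken by symbol from a targeted panel read out cell by cell in mouse bone marrow (BM), by a rule that names them and uses no measured value. They made up 5 of the 125 panel targets that had a molecule in at least 1 library. All 5 were detected in each of the 3 libraries, and none was lost to a filter on low values. Molecules were counted with unique molecular identifiers, so that copies of 1 captured transcript count once.

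There were 3 groups of 1 library each, all from wild-type (WT) mice of strain C57/B6. E18.5 EC, here called the EC sort, holds endothelial cells (ECs) sorted from embryonic BM (the E number is the day of embryonic development). For this sort the series text names CD31 plus endomucin, whereas the methods name CD31 only, and which was used is not known. The other groups, E18.5 BM cells (embryonic marrow) plus Adult BM cells (adult marrow), hold marrow cells after magnetic removal of lineage-positive haematopoietic cells, so their haematopoietic cells are those that such a depletion leaves. The methods describe further rounds of depletion for whole-transcriptome libraries, and whether the adult library here had them is not stated. Several animals were pooled for each library, and the labels give no age for the adult mice. With 1 library in a group there is no replicate, and no difference below was tested across animals. Intervals are exact 95% intervals and cover counting error only. Stage, preparation, depth and library cannot be told apart.

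Without Wnt, a cytoplasmic complex marks β-catenin for destruction. Axin1 is the scaffold of this complex, Apc is a large protein that helps it to hold and release β-catenin, and Amer1 (also called Wtx) binds Apc and links components of the pathway to the plasma membrane. When Wnt binds a frizzled receptor, Dishevelled proteins such as Dvl1 and Dvl2 are recruited to the receptor and draw Axin away from the complex, so that β-catenin builds up and reaches the nucleus. In the marrow, Wnt signalling is known for its part in the control of haematopoietic stem cells and bone-forming cells. Ctnnb1, the gene of β-catenin, was not analysed here.

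The amplicons name 1 transcript for each gene, and the coordinates here are those of these transcripts in GRCm38 (mm10). Axin1 lies on the plus strand of chromosome 17, from 26138688 to 26195811, in 11 exons. Dvl1 lies on the plus strand of chromosome 4, from 155847402 to 155859303, and Dvl2 on the plus strand of chromosome 11, from 70000595 to 70010111, each in 15 exons. Amer1 lies on the minus strand of chromosome X, from 95420318 to 95444872, in 2 exons, and the transcript of Apc has 16 exons on chromosome 18. Apc had 3 amplicons, and the highest count in a cell was taken. The first and second gave equal counts in 88.5%, 76.9% and 69.0% of the cells that had either, in the EC sort, embryonic marrow and adult marrow. The third was found in 462, 1293 and 628 cells of these libraries. In 234, 670 and 382 of those cells it was the only amplicon of Apc with a molecule. Because the highest of unequal counts is taken, the molecules of Apc are raised most where the amplicons differed most.

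After cells with under 20 molecules or 5 targets were left out, the libraries held 4037 cells (the EC sort), 12836 cells (embryonic marrow) and 7939 cells (adult marrow), with medians of 81, 96 and 238 molecules per cell. Pairs of libraries shared 38 to 113 barcodes, at most 1.43% of the smaller library. The 5 genes together gave 10051, 46159 and 21453 molecules, or 2.36%, 2.53% and 0.342% of all panel molecules. Classes of cells were built from targets outside the Wnt pathway and named from marker genes, and names end in "-like". The EC sort comprised 2101 endothelial-like and 982 haematopoietic-like cells. A further 929 cells of this library had Pecam1, the gene of CD31, in 100% of cells. Their clusters were led by Ccn3 or by Vwf with Fbn1 and stayed unnamed, although Kdr and Pecam1 were also among their leading targets. Embryonic marrow comprised 405 endothelial-like, 4641 haematopoietic-like and 1293 mesenchymal-like cells, with 5970 cells in unnamed clusters that carried Ptprc, the gene of CD45, in 94.3% of cells. Adult marrow comprised 1654 endothelial-like, 1731 haematopoietic-like, 3613 mesenchymal-like and 435 chondrocyte-like cells. Free RNA can give molecules in cells that do not make them, and none of the classes is known to lack these 5 genes. As a gauge, Ptprc had a molecule in 2.0%, 11.9% and 2.36% of endothelial-like cells in the 3 libraries. Pecam1 does not serve as such a gauge in haematopoietic-like cells, since it varied widely between their clusters. In embryonic marrow it was found in 99.5% of the cells of a cluster led by Hlf and in 4.13% of another. Over the whole class it had a molecule in 81.9%, 49.2% and 69.9% of haematopoietic-like cells, and the EC sort was itself made with CD31. The part of haematopoietic-like cells with Pecam1 in the values below was not tested beyond the alternatives named.

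Levels are given on 2 scales. The first is molecules per 10000 panel molecules of a class, which falls where a class is rich in a few abundant targets. The 10 most abundant targets, led by Col2a1 and Bglap3, held 19.7% of the molecules of the EC sort, 36.9% of embryonic marrow and 77.7% of adult marrow. The second is molecules per cell, which rises with the depth of a cell. Another measure needs neither scale: the share of each gene among the molecules of the 5, or the molecules of one gene per molecule of another. Each gene has its own primers, and shares are therefore compared between classes for the same gene and not between genes.

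The classes differed in the proportions of the 5 genes. Axin1 made up a larger share of them in the haematopoietic-like class than in the endothelial-like class of all 3 libraries, and Apc a smaller one. In the EC sort the share of Axin1 was 25.4% (24.1 to 26.8) in endothelial-like and 50.5% (48.9 to 52.1) in haematopoietic-like cells. The corresponding shares in embryonic marrow were 26.5% (23.3 to 30.0) and 48.8% (48.1 to 49.5), and those in adult marrow 19.7% (18.4 to 21.1) and 41.4% (40.3 to 42.5). Within each library these intervals lay far apart.

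Apc moved the other way. Its share was 30.5% (29.1 to 31.9) in endothelial-like and 14.9% (13.8 to 16.1) in haematopoietic-like cells of the EC sort. It was 37.0% (33.4 to 40.7) and 16.4% (15.9 to 16.9) in embryonic marrow. In adult marrow it was 24.5% (23.1 to 26.0) and 10.9% (10.2 to 11.6). The intervals of the classes did not overlap in any library.

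**Figure D1:**
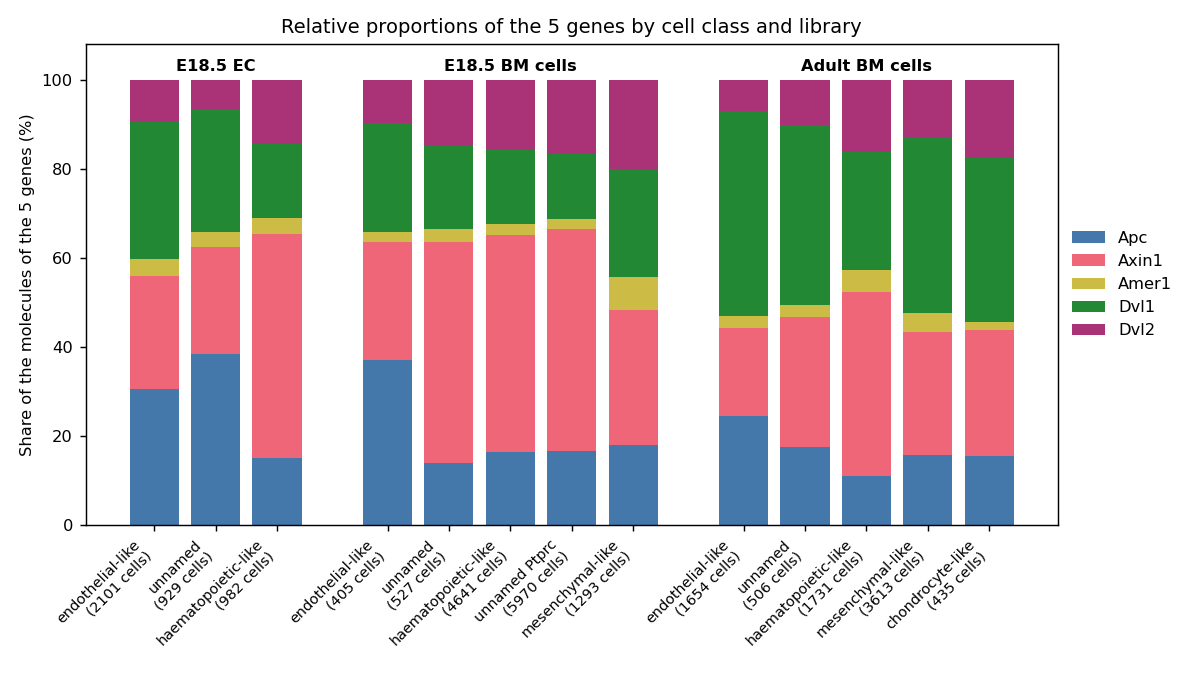
Share of Apc, Axin1, Amer1, Dvl1 and Dvl2 among the molecules of the 5 genes (vertical axis, percent), with 1 stacked bar per cell class of at least 50 cells in each library. Axin1 takes between 41.4% and 50.5% of haematopoietic-like bars and between 19.7% and 26.5% of endothelial-like bars, and Dvl1 takes a larger part of each named class in adult marrow than of the same class at E18.5.

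Set directly against each other, Axin1 gave 0.835 molecules per molecule of Apc (0.769 to 0.906) in endothelial-like cells of the EC sort, 0.716 (0.589 to 0.869) in those of embryonic marrow and 0.803 (0.725 to 0.889) in those of adult marrow. These 3 values did not differ beyond their intervals. In haematopoietic-like cells Axin1 gave 3.39 (3.08 to 3.72), 2.98 (2.87 to 3.11) and 3.79 (3.52 to 4.09) molecules per molecule of Apc. The haematopoietic-like value was 4.06 times the endothelial-like one in the EC sort (3.58 to 4.6), 4.17 times in embryonic marrow (3.42 to 5.08) and 4.72 times in adult marrow (4.16 to 5.36). The fold was above 2 in every library under each of the processing alternatives tried, the lowest being 2.02 in adult marrow. That value came from leaving out cells with 3 or more marker molecules of a second class, which removed 89.3% of the adult cells and left 40 endothelial-like ones. Molecules after only the first of the error corrections (RSEC) gave 2.73 in embryonic marrow.

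The Dishevelled genes differed between the same classes. Dvl2 gave 0.301 molecules per molecule of Dvl1 (0.268 to 0.337) in endothelial-like and 0.868 (0.773 to 0.974) in haematopoietic-like cells of the EC sort, a fold of 2.88 (2.45 to 3.39). In embryonic marrow the fold was 2.34 (1.75 to 3.17), from 0.394 to 0.924. In adult marrow it was 4.0 (3.43 to 4.67), from 0.155 to 0.619. The values that moved most were 12.1 in adult marrow without cells that had markers of a second class and 1.55 in embryonic marrow with 20 principal components. The value of 12.1 rested on the 40 endothelial-like cells left in adult marrow. Dvl2 and Axin1 were thus both high in the haematopoietic-like class relative to their partners in the list. The molecules of Dvl2 per molecule of Axin1 were near each other in both classes, at 0.366 and 0.286 in the EC sort, 0.364 and 0.319 in embryonic marrow and 0.361 and 0.394 in adult marrow (endothelial-like first). The fold between the classes was 0.780 (0.670 to 0.908) in the first library, while in the marrow libraries its interval included 1, from 0.657 to 1.18 and from 0.930 to 1.29.

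**Figure D2:**
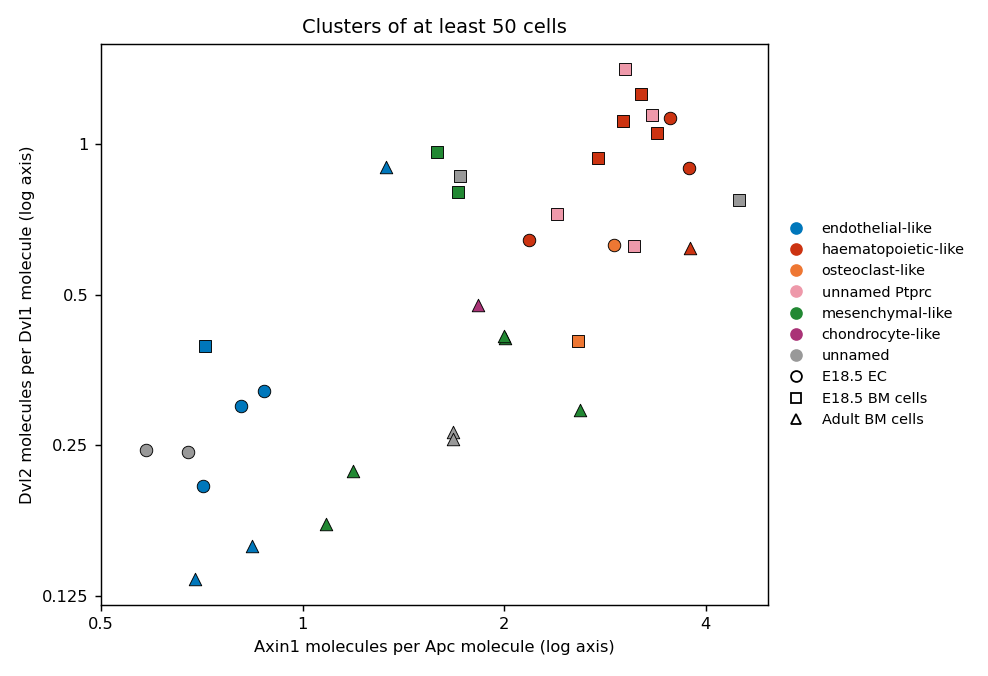
Clusters of at least 50 cells, with molecules of Axin1 per molecule of Apc on the horizontal axis and molecules of Dvl2 per molecule of Dvl1 on the vertical axis (both log axes), coloured by class and with a marker shape per library. Endothelial-like clusters lie at the left, from 0.690 to 1.33 on the horizontal axis, and haematopoietic-like and Ptprc-carrying clusters lie to the right of them, from 2.18 to 3.79.

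Single clusters showed the same separation. The 7 endothelial-like clusters of at least 50 cells had between 0.690 and 1.33 molecules of Axin1 per molecule of Apc, and the 8 haematopoietic-like clusters other than osteoclast-like ones had between 2.18 and 3.79. The 4 unnamed clusters with Ptprc in embryonic marrow lay between 2.40 and 3.33, inside the range of the named ones. The 2 unnamed clusters with Pecam1 in the EC sort had 0.675 (0.572 to 0.795) and 0.583 (0.490 to 0.693). The highest endothelial-like value, 1.33 (0.649 to 2.80), came from a cluster of 65 adult cells led by Vwf and Srgn, in which only 20 molecules of Axin1 and 15 of Apc were counted. The lowest haematopoietic-like value, 2.18 (1.03 to 4.93), came from 63 cells of the EC sort led by Mmp9, and these intervals overlapped. For Dvl2 per molecule of Dvl1 the ranges met, with 0.135 to 0.900 in endothelial-like clusters and 0.619 to 1.26 in haematopoietic-like clusters other than osteoclast-like ones. The osteoclast-like clusters had 0.628 in the EC sort and 0.404 in embryonic marrow. The latter was near the 0.394 of the endothelial-like cluster of that library. Again the cluster of 65 adult cells gave the upper end of the endothelial-like range, at 0.900 (0.324 to 2.46).

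The highest value of any cluster was in 310 unnamed cells of embryonic marrow. They had 4.48 molecules of Axin1 per molecule of Apc (3.86 to 5.21) and 299 molecules of Axin1 per 10000 (281 to 318). Vwf, Nrarp and Car3 led this cluster, Ptprc was found in 8.06% of its cells and Pecam1 in 25.8%, and its cell cycle targets (Cdk1, Mki67, Top2a and Ccne1) summed to 3393 molecules per 10000. It was singled out after its values were seen.

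Axin1, the scaffold, had its highest levels among the named classes in the haematopoietic-like class of each library. It stood at 175 molecules per 10000 (169 to 181) in adult marrow, 154 (151 to 157) in embryonic marrow and 129 (123 to 135) in the EC sort. Next came the endothelial-like classes at E18.5, with 56.8 (53.4 to 60.2) in the EC sort and 47.9 (41.2 to 55.4) in embryonic marrow, which overlapped. The mesenchymal-like cells of embryonic marrow, at 31.4 (29.6 to 33.3), and the endothelial-like cells of adult marrow, at 30.4 (28.1 to 32.7), overlapped too. Adult mesenchymal-like cells had 5.75 (5.49 to 6.02) and chondrocyte-like cells 2.99 (2.74 to 3.25), the lowest on this scale. Counted per cell the order was different, with 1.89 to 2.06 molecules in haematopoietic-like, 1.28 in chondrocyte-like, 0.511 and 0.861 in mesenchymal-like and 0.414 to 0.512 in endothelial-like cells.

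Cells thinned to 50 molecules gave the same contrast for Axin1 at equal depth. A molecule of Axin1 was found in 26.1% (24.0 to 28.4), 19.9% (15.7 to 24.7) and 15.3% (13.6 to 17.2) of thinned endothelial-like cells of the EC sort, embryonic marrow and adult marrow. The corresponding shares of haematopoietic-like cells were 49.1% (45.8 to 52.4), 59.4% (57.8 to 61.0) and 57.7% (55.2 to 60.1). Cells too shallow for thinning were left out, which kept 1574 of 2101, 322 of 405 and 1553 of 1654 endothelial-like cells and 904 of 982, 3762 of 4641 and 1627 of 1731 haematopoietic-like cells. Without thinning the shares were 38.7%, 32.6% and 31.2% of endothelial-like cells, at medians of 74, 82 and 110 molecules, and 78.3%, 79.7% and 77.2% of haematopoietic-like cells, at medians of 121, 95 and 90.

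Apc had a narrower range, and it depended on the scale. Its highest named levels were in endothelial-like cells at E18.5, at 68.0 molecules per 10000 (64.3 to 71.8) in the EC sort and 66.9 (59.0 to 75.6) in embryonic marrow, which overlapped. The unnamed cells with Pecam1 in the EC sort lay above these, at 94.7. Haematopoietic-like cells had 51.5 (49.7 to 53.3) in embryonic marrow, 46.1 (43.0 to 49.3) in adult marrow and 38.0 (35.0 to 41.3) in the EC sort. The last of these overlapped with adult endothelial-like cells, at 37.8 (35.3 to 40.4). Mesenchymal-like cells had 18.6 (17.2 to 20) at E18.5 and 3.27 (3.07 to 3.47) in the adult, and chondrocyte-like cells 1.64 (1.46 to 1.83). Per cell, Apc lay between 0.291 and 0.784 molecules over the 13 classes and unnamed groups of at least 50 cells, a 2.70-fold range, whereas Axin1 covered a 5.2-fold range on that scale.

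Between haematopoietic-like and endothelial-like cells, the Apc level per 10000 did not go the same way in all libraries. The ratio was 0.559 (0.506 to 0.617) in the EC sort, 0.770 (0.678 to 0.877) in embryonic marrow and 1.22 (1.11 to 1.34) in adult marrow. Per cell it was 0.958, 1.09 and 0.966, so that a mean haematopoietic-like and a mean endothelial-like cell held nearly the same number of Apc molecules in each library. Without the osteoclast-like clusters the ratio per 10000 in embryonic marrow was 1.14 (1.0 to 1.30), on the other side of 1. After thinning to 50 molecules, Apc was found in 29.7%, 28.6% and 17.4% of endothelial-like and in 19.8%, 27.3% and 22.4% of haematopoietic-like cells of the EC sort, embryonic marrow and adult marrow.

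**Figure D3:**
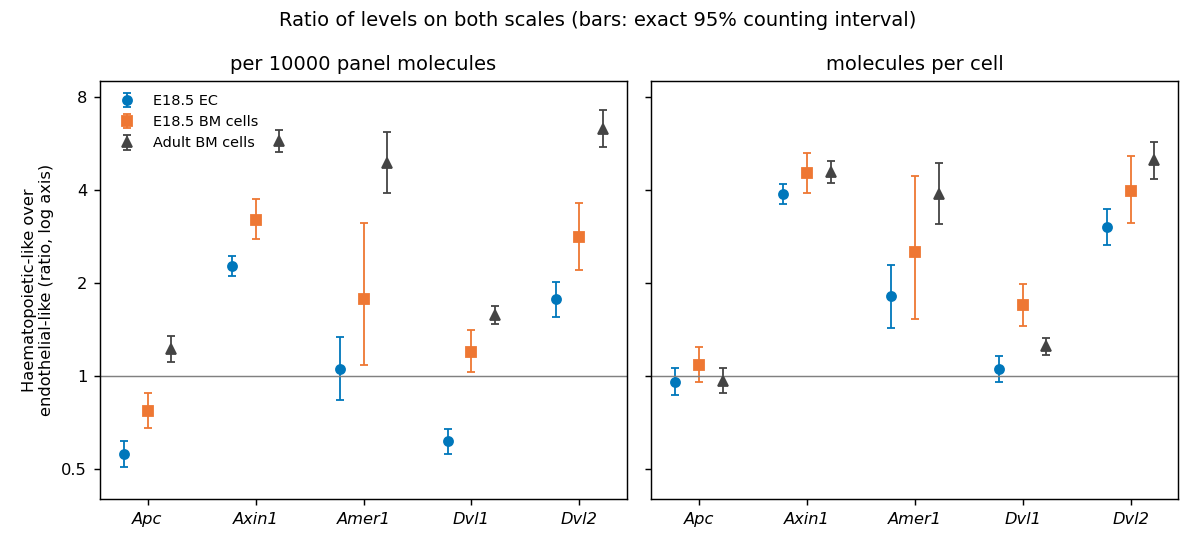
Ratio of haematopoietic-like to endothelial-like cells for each gene in each library (log axis), from molecules per 10000 panel molecules at the left and from molecules per cell at the right; bars are exact 95% counting intervals and the line marks 1. Axin1 lies between 2.27 and 5.75 at the left and between 3.89 and 4.56 at the right, and Apc lies on both sides of 1 at the left and between 0.958 and 1.09 at the right.

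For Axin1 itself the ratio of haematopoietic-like to endothelial-like cells was 2.27 (2.10 to 2.45) in the EC sort, 3.21 (2.77 to 3.73) in embryonic marrow and 5.75 (5.30 to 6.26) in adult marrow per 10000. Per cell these ratios were 3.89, 4.53 and 4.56. Dvl2 had ratios of 1.77 (1.55 to 2.02), 2.81 (2.21 to 3.64) and 6.29 (5.49 to 7.24) per 10000, and 3.03, 3.97 and 4.98 per cell. Taken as whole classes, haematopoietic-like cells had higher values of both genes on both scales in all 3 libraries. The osteoclast-like part of embryonic marrow lay apart from this per 10000. It had 12.6 molecules of Dvl2 and 50.7 of Axin1, against 17.4 and 47.9 in endothelial-like cells of that library. Together the 5 genes had a ratio of haematopoietic-like to endothelial-like cells of 1.14 (1.09 to 1.19), 1.74 (1.61 to 1.88) and 2.74 (2.63 to 2.85) per 10000. Another denominator was the molecules of 4 other intracellular targets (Ccar2, Cdc73, Gskip, Ccny) in place of the whole panel. Ccny itself differed between these adult classes, at 1.76 times (1.60 to 1.95) per 10000. Against the 4 targets the adult ratio of the 5 genes together was 0.973, on the other side of 1. So were those of Apc, at 0.433, and of Dvl1, at 0.559.

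Between these classes 1 of 5 members was past 2-fold in the EC sort, where 72.3% of the 83 targets tested were past it in either direction. In embryonic marrow 2 of 5 members, Axin1 and Dvl2, were past 2-fold against 69.0% of 87 targets. In adult marrow these and Amer1 were past it, 3 of 5 against 71.3% of 94 targets. A target was tested if it had at least 20 molecules in the compared classes together.

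Amer1, the membrane-linked partner of Apc, gave the fewest molecules, with 365, 1258 and 843 in the cells of the 3 libraries. Its level was highest among the named classes in adult haematopoietic-like cells, at 21.0 molecules per 10000 (19.0 to 23.2). The classes at E18.5 other than endothelial-like cells of embryonic marrow lay close together, with 8.96 (7.52 to 10.6) in haematopoietic-like and 8.49 (7.23 to 9.91) in endothelial-like cells of the EC sort, and with 7.44 (6.57 to 8.39) in mesenchymal-like and 7.40 (6.74 to 8.11) in haematopoietic-like cells of embryonic marrow. Those 4 intervals overlapped. Endothelial-like cells had 4.30 (3.49 to 5.24) in the adult and 4.17 (2.38 to 6.77, from 16 molecules) in embryonic marrow. Adult mesenchymal-like cells had 0.859 (0.761 to 0.967) and chondrocyte-like cells 0.193 (0.135 to 0.267).

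Relative to Apc, and among classes of at least 50 cells, Amer1 was highest in adult haematopoietic-like cells, at 0.456 molecules per molecule of Apc (0.404 to 0.514), and in the mesenchymal-like cells of embryonic marrow, at 0.401 (0.346 to 0.463). Endothelial-like cells had 0.12 (0.105 to 0.147) in the EC sort, 0.0623 (0.0351 to 0.103) in embryonic marrow and 0.114 (0.0912 to 0.140) in adult marrow. The fold of haematopoietic-like over endothelial-like cells was 1.89 (1.46 to 2.44), 2.31 (1.38 to 4.14) and 4.01 (3.13 to 5.16). After thinning to 50 molecules, Amer1 was found in 2.90% to 3.68% of endothelial-like cells and in 5.2%, 4.41% and 9.77% of haematopoietic-like cells of the EC sort, embryonic marrow and adult marrow.

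Dvl1, a Dishevelled adaptor, had its highest level among the named classes in the haematopoietic-like cells of adult marrow. They had 111 molecules per 10000 (107 to 116), against 53.1 (51.3 to 54.9) in those of embryonic marrow and 42.4 (39.2 to 45.8) in those of the EC sort. Endothelial-like cells had 70.8 (67.3 to 74.3) in the adult and 69.0 (65.4 to 72.9) in the EC sort, which overlapped, and 44.3 (37.9 to 51.4) in embryonic marrow. Mesenchymal-like cells had 25.3 (23.7 to 27.0) at E18.5 and 8.23 (7.92 to 8.55) in the adult, and chondrocyte-like cells 3.90 (3.63 to 4.2). Between haematopoietic-like and endothelial-like cells its ratio per 10000 was 0.614 (0.557 to 0.675) in the EC sort, 1.20 (1.03 to 1.41) in embryonic marrow and 1.57 (1.47 to 1.68) in adult marrow. Per cell the ratio was 1.05, 1.69 and 1.25. At 50 molecules a cell, Dvl1 was found in 30.1%, 17.4% and 31.2% of endothelial-like and in 20.8%, 26.9% and 42.3% of haematopoietic-like cells.

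Dvl2, the other Dishevelled gene of the panel, followed nearly the order of Axin1. Haematopoietic-like cells had 68.8 molecules per 10000 (65.1 to 72.7) in the adult, 49.0 (47.3 to 50.8) in embryonic marrow and 36.8 (33.8 to 39.9) in the EC sort. Endothelial-like cells of the EC sort, at 20.8 (18.8 to 22.9), mesenchymal-like cells of embryonic marrow, at 20.6 (19.2 to 22.2), and endothelial-like cells of embryonic marrow, at 17.4 (13.5 to 22.2), overlapped. Adult endothelial-like cells had 10.9 (9.62 to 12.4), mesenchymal-like cells 2.68 (2.51 to 2.87) and chondrocyte-like cells 1.86 (1.67 to 2.07). On the scale of molecules per cell, chondrocyte-like cells held 0.798 molecules of Dvl2, above the 0.744 of adult haematopoietic-like cells. At 50 molecules a cell, Dvl2 was found in 9.28%, 9.01% and 6.25% of endothelial-like and in 17.8%, 26.3% and 30.2% of haematopoietic-like cells of the 3 libraries.

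**Figure D4:**
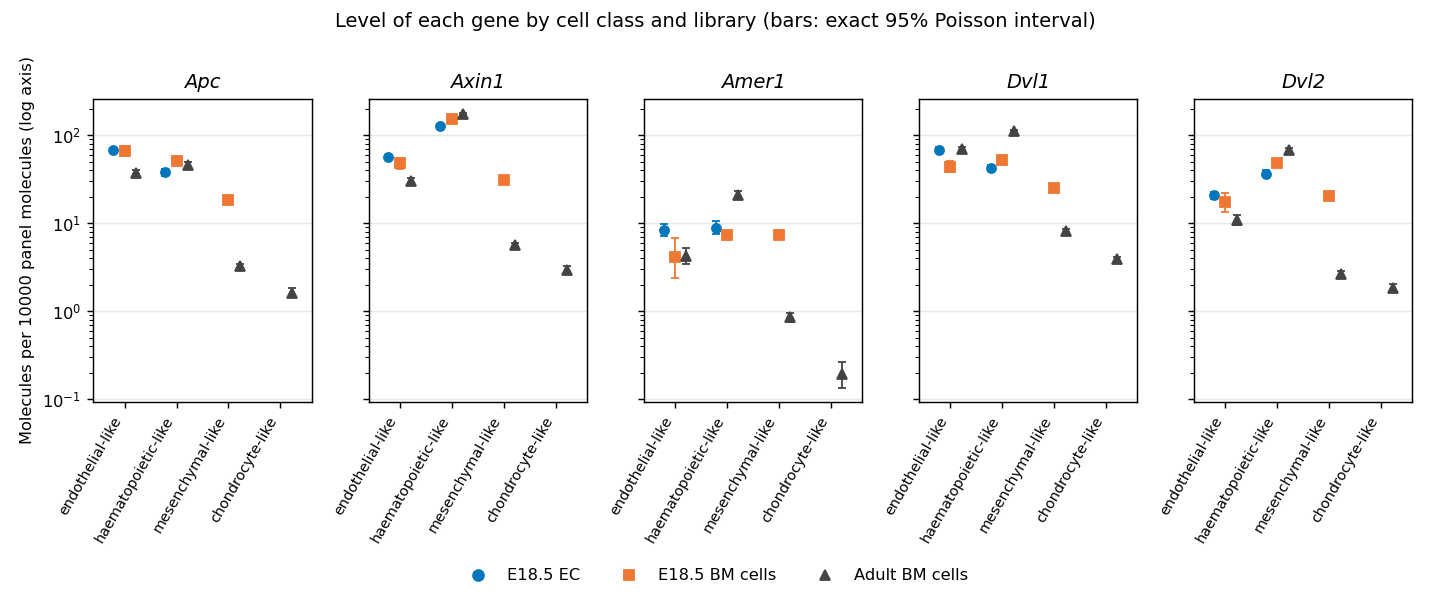
Molecules of each gene per 10000 panel molecules (log axis) in the named classes of at least 50 cells, with a marker per library and exact 95% Poisson intervals. Axin1 and Dvl2 peak in haematopoietic-like cells of every library, while Apc at E18.5 is highest in endothelial-like cells, at 68.0 and 66.9.

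Cell cycle targets moved with these classes. They summed to 1409, 1565 and 1683 molecules per 10000 in haematopoietic-like cells of the EC sort, embryonic marrow and adult marrow, and to 669, 819 and 50.6 in endothelial-like cells. The proportions were therefore also taken in cells without any molecule of a cell cycle target. Among these, Axin1 gave 2.79, 2.05 and 2.50 molecules per molecule of Apc in 305, 692 and 452 haematopoietic-like cells. In 837, 149 and 1412 endothelial-like cells without such a molecule it gave 0.775, 0.606 and 0.766. Haematopoietic-like cells with a cell cycle molecule had higher values, at 3.54, 3.07 and 4.11, and endothelial-like cells with one had 0.868, 0.758 and 0.952. The difference between the classes was thus present in cells with and without cell cycle molecules, and within the haematopoietic-like class cells with one were deeper, at medians of 145, 104 and 103 molecules against 78, 46 and 65.

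The share of Axin1 among the 5 genes moved less than its level between haematopoietic-like cells with and without a cell cycle molecule. Axin1 per molecule of Apc moved more than the share, and the proportions were thus not independent of the cell cycle. Without and with such a molecule it was 2.79 and 3.54 in the EC sort, 2.05 and 3.07 in embryonic marrow and 2.50 and 4.11 in adult marrow. In embryonic marrow, haematopoietic-like cells with a cell cycle molecule had 160 molecules of Axin1 per 10000 and a share of 49.2% (48.5 to 50), and those without had 94.8 and 43.5% (40.8 to 46.2). In adult marrow the levels were 187 and 122 and the shares 42.1% (40.9 to 43.3) and 37.4% (34.6 to 40.3). In the EC sort the levels were 140 and 92.4, and the shares, 51.0% (49.3 to 52.8) and 48.1% (44.2 to 51.9), overlapped.

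Osteoclast-like clusters, led by Acp5, Ctsk and Atp6v0d2, were near the other haematopoietic-like cells in Axin1 per molecule of Apc and farther from them in the Dishevelled genes. In embryonic marrow they gave 2.58 molecules of Axin1 per molecule of Apc (2.33 to 2.86) against 3.06 (2.93 to 3.20) in the other haematopoietic-like cells. Dvl2 per molecule of Dvl1 was 0.404 (0.355 to 0.459) against 1.10 (1.04 to 1.16), a fold of 0.367 (0.319 to 0.422). In the EC sort the corresponding values were 2.92 (2.47 to 3.46) against 3.62 (3.23 to 4.06) for Axin1 and 0.628 (0.504 to 0.782) against 0.991 (0.864 to 1.14) for Dvl2. Per 10000 all 5 members were past 2-fold lower in osteoclast-like cells of embryonic marrow, where 81.4% of targets were past 2-fold. In the EC sort none of the 5 was, against 63.5% of targets. The osteoclast-like cells of embryonic marrow were deep, at a median of 277.5 molecules against 81 in the other haematopoietic-like cells, and per cell their ratios ran from 0.565 for Dvl2 to 1.54 for Dvl1.

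Arterial-like cells, whose leading targets included Gja4 and Sema3g, were compared with the rest of the endothelial-like class. In the EC sort their levels per 10000 were lower for all 5 genes, with ratios of 0.672 (0.570 to 0.788) for Apc, 0.558 (0.460 to 0.673) for Axin1, 0.602 (0.357 to 0.966) for Amer1, 0.608 (0.513 to 0.717) for Dvl1 and 0.401 (0.274 to 0.571) for Dvl2. Per cell, 4 of these ratios lay between 0.911 and 1.10, and that of Dvl2 was 0.654. In adult marrow the ratios per 10000 ran from 0.592 (0.496 to 0.704) for Axin1 to 0.910 (0.581 to 1.40) for Amer1, and those per cell from 0.817 to 1.26. The number past 2-fold was 1 of 5 in the EC sort and 0 of 5 in adult marrow, against 50.7% and 55.4% of targets. Arterial-like cells were deeper than the others, at medians of 117 against 70 molecules in the EC sort and 145 against 98 in adult marrow, and the gate of the EC sort, which could set the arterial cells it holds, is not known.

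In the scale-free measures the arterial-like cells lay near the other endothelial-like cells. Axin1 per molecule of Apc was 0.710 (0.560 to 0.898) in arterial-like and 0.854 (0.783 to 0.933) in other endothelial-like cells of the EC sort. In adult marrow it was 0.690 (0.567 to 0.838) and 0.852 (0.755 to 0.961). The fold between them was 0.831 (0.645 to 1.07) and 0.810 (0.642 to 1.02), intervals that include 1. Dvl2 per molecule of Dvl1 was 0.207 (0.139 to 0.301) against 0.314 (0.279 to 0.354) in the EC sort, and 0.135 (0.103 to 0.174) against 0.164 (0.139 to 0.192) in adult marrow. The fold was 0.659 (0.434 to 0.98), below 1, in the first and 0.824 (0.602 to 1.12) in the second.

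In Axin1 per molecule of Apc, stromal cells lay between endothelial-like and haematopoietic-like cells. Mesenchymal-like cells had 1.69 molecules of Axin1 per molecule of Apc (1.53 to 1.86) in embryonic marrow and 1.76 (1.63 to 1.90) in adult marrow, and chondrocyte-like cells had 1.83 (1.59 to 2.11). These 3 values overlapped and stood apart from those of both other classes. Over the stromal parts of adult marrow the value ran from 1.08 (0.849 to 1.38) in mural-like cells, led by Acta2 and Rgs5, and 1.19 (1.0 to 1.41) in osteoblast-like cells, led by Bglap, through 2.01 (1.81 to 2.23) in the clusters led by Lepr, Cp and Fbln5, to 2.60 (2.10 to 3.24) in fibroblast-like cells, led by Ccn3 and Aspn. At E18.5 fibroblast-like cells had 1.70 (1.54 to 1.89) and mural-like cells 1.59 (1.20 to 2.10). Mural-like cells of adult marrow had Pecam1 in 64.5% of cells, against 5.56% at E18.5, and the part of this in their value was not tested.

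The levels per 10000 of stromal cells were low, and this turned with the scale. Mesenchymal-like cells of embryonic marrow had 0.572 times the summed level of endothelial-like cells (0.527 to 0.621) per 10000 and 1.65 times per cell. In adult marrow they had 0.135 times (0.129 to 0.141) per 10000 and 0.879 times per cell. Chondrocyte-like cells had 0.0686 times (0.0649 to 0.0726) per 10000 and 2.16 times per cell, with a median of 4002 molecules per cell against 110 in endothelial-like cells. Past 2-fold per 10000 were 1 of 5 members for mesenchymal-like cells of embryonic marrow, against 84.5% of targets, 5 of 5 for those of adult marrow, against 83.8%, and 5 of 5 for chondrocyte-like cells, against 91.1%. Because both scales are bound to depth here, no direction is given for these levels.

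Amer1 took a large share in the stroma of embryonic marrow. It made up 7.20% (6.39 to 8.09) of the 5 genes in mesenchymal-like cells of embryonic marrow, against 2.31% (1.32 to 3.72) in endothelial-like and 2.35% (2.14 to 2.57) in haematopoietic-like cells of the same library. The fibroblast-like part had 7.33% (6.46 to 8.28) and the mural-like part 6.22% (4.10 to 8.98). In the adult these shares were 4.13% (3.67 to 4.64) for mesenchymal-like cells, 2.31% (1.43 to 3.50) for the fibroblast-like part and 4.05% (2.64 to 5.92) for the mural-like part, and chondrocyte-like cells had 1.82% (1.28 to 2.52). Dvl2 was also large in E18.5 stroma, with 20% (18.7 to 21.3) of the 5 genes, above the 15.6% (15.1 to 16.1) of haematopoietic-like cells of that library.

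Embryonic and adult libraries were then set side by side for cells of the same class. Dvl1 was higher relative to Apc in the adult library in each class, beyond counting error. Endothelial-like cells had 1.02 molecules of Dvl1 per molecule of Apc in the EC sort and 1.87 in adult marrow, a fold of 1.84 (1.64 to 2.07). Haematopoietic-like cells had 1.03 in embryonic marrow and 2.42 in adult marrow, a fold of 2.35 (2.13 to 2.58), and mesenchymal-like cells had 1.36 and 2.52, a fold of 1.85 (1.63 to 2.10). Fibroblast-like cells gave a fold of 2.11 (1.66 to 2.69) and mural-like cells one of 2.09 (1.43 to 3.06). These 2 are parts of the mesenchymal-like class, and all of these folds share the adult library, so that a shift of Dvl1 against Apc in the whole library cannot be told apart from a change in each class.

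The E18.5 libraries did not share 1 value either. Endothelial-like cells of embryonic marrow had 0.661 molecules of Dvl1 per molecule of Apc, 0.651 times (0.525 to 0.806) the value of those of the EC sort. The error correction kept 16.7%, 33.4% and 27.6% of the raw molecules of Dvl1 in the EC sort, embryonic marrow and adult marrow, and 31.7%, 48.6% and 38.2% of those of Apc. With raw molecules the fold of adult over E18.5 was 1.37 (1.28 to 1.46) for endothelial-like, 2.31 (2.18 to 2.46) for haematopoietic-like and 1.8 (1.67 to 1.95) for mesenchymal-like cells.

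Axin1 relative to Apc moved less between stages. Axin1 per molecule of Apc in adult marrow was 0.962 times (0.844 to 1.10) that of the EC sort in endothelial-like cells and 1.04 times (0.919 to 1.18) that of embryonic marrow in mesenchymal-like cells, intervals that include 1. In haematopoietic-like cells it was 1.27 times (1.17 to 1.39). Amer1 per molecule of Apc was 3.17 times higher (2.71 to 3.71) in adult than in E18.5 haematopoietic-like cells, 0.656 times (0.537 to 0.801) in mesenchymal-like and 0.910 times (0.690 to 1.20) in endothelial-like cells. For endothelial-like cells the E18.5 side was the EC sort. Those of embryonic marrow had a lower value, 0.0623 from 16 molecules of Amer1, against 0.114 in the adult. Dvl2 per molecule of Dvl1 was lower in the adult library in all 3 classes, at 0.514 times (0.429 to 0.614) in endothelial-like, 0.669 times (0.614 to 0.730) in haematopoietic-like and 0.40 times (0.352 to 0.454) in mesenchymal-like cells. The error correction kept 38.8%, 51.6% and 36.2% of raw Dvl2 molecules in the EC sort, embryonic marrow and adult marrow. For Dvl1 it kept 16.7%, 33.4% and 27.6%, so it moved this proportion by unlike amounts, most in the EC sort. The stage fold of Dvl2 per Dvl1 was not taken with raw molecules, and the part of the correction in it was not tested.

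On the scale per 10000, adult endothelial-like cells had between 0.506 and 0.556 times the level of those of the EC sort for Apc, Axin1, Amer1 and Dvl2, and 1.02 times (0.952 to 1.10) for Dvl1. The direction of the first 4 turned against 4 other intracellular targets in place of the whole panel, at 1.20 for Apc, 1.15 for Axin1, 1.09 for Amer1 and 1.14 for Dvl2. Ccny, part of that denominator, was itself at 0.555 times (0.502 to 0.614) per 10000. None of the 5 was past 2-fold, against 59.1% of targets. Per cell, the first 4 genes lay between 0.765 and 0.841 times and Dvl1 at 1.55 times, and the 5 together at 1.04 times. Between the endothelial-like cells of both E18.5 libraries, 1 of 5 members was past 2-fold, against 26.4% of targets, and this was Amer1 at 0.491 (0.274 to 0.821), from 16 and 161 molecules. Apc did not differ there beyond counting error, at 0.984 (0.858 to 1.13). Against endothelial-like cells of embryonic marrow in place of the EC sort, Amer1 was at 4.30 per 10000 in the adult and 4.17 at E18.5. Dvl1 was then at 70.8 in the adult and 44.3 at E18.5. Apc (37.8 and 66.9), Axin1 (30.4 and 47.9) and Dvl2 (10.9 and 17.4) were lower in the adult here too. The stage difference of Amer1 and Dvl1 thus depended on the E18.5 library chosen.

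Haematopoietic-like cells of adult marrow had 2.84 times (2.47 to 3.25) the Amer1 level and 2.10 times (1.98 to 2.22) the Dvl1 level of those of embryonic marrow per 10000. These were the 2 of 5 members past 2-fold, against 58.7% of targets. Axin1 was at 1.14 times (1.09 to 1.18), Dvl2 at 1.40 times (1.31 to 1.50) and Apc at 0.894 times (0.829 to 0.965). The E18.5 class held 844 osteoclast-like cells and the adult one no osteoclast-like cluster. Without them Axin1 was at 0.750 times and Dvl2 at 0.893 times, on the other side of 1. Axin1 was also below 1 with RSEC-adjusted molecules, at 0.811, and with raw ones, at 0.921, and Apc was at 1.08 with a denominator without the 10 most abundant targets. In mesenchymal-like cells all 5 members were past 2-fold lower in adult marrow, at 0.115 to 0.325 times, where 82.4% of targets were past 2-fold, and per cell the ratios ran from 0.374 for Amer1 to 1.05 for Dvl1. This direction too depended on the denominator. Without the 10 most abundant targets the 5 genes together were at 0.959 times and Dvl1 at 1.55 times, and against 4 other intracellular targets the sum was at 1.22 times, with Apc at 1.07, Axin1 at 1.11 and Dvl1 at 1.97. Of those 4 targets, Ccny was itself at 0.200 times (0.176 to 0.226) per 10000. Matched parts gave smaller differences, with 0.710 times in fibroblast-like and 0.539 times in mural-like cells for the 5 genes together, against 0.201 times in the whole class. In fibroblast-like cells 2 of 5 members, Amer1 and Dvl2, were past 2-fold lower, where 63.1% of targets were past it. In mural-like cells 3 of 5 were, Axin1, Amer1 and Dvl2, where 75.6% of targets were past it.

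Other intracellular components of the pathway were looked for in a list of 31 genes, of which the panel gave molecules for 5. Gsk3b, the kinase that phosphorylates β-catenin in the destruction complex, had 18, 18 and 3 molecules in the 3 libraries, too few for any comparison. That left Ccny and Cdk14, a cyclin and kinase pair that acts on the Wnt co-receptor, Lef1, a transcription factor that partners β-catenin, and Wls, the carrier needed for Wnt secretion. Between the named haematopoietic-like and endothelial-like classes 0 of 4 were past 2-fold in the EC sort, against 72.3% of targets. In embryonic marrow 0 of 4 were past it as well, against 69.0% of targets. For Lef1 in embryonic marrow this left out most molecules, since the unnamed clusters with Ptprc held 14289 of 15686. Lef1 had 235 molecules per 10000 (231 to 239) in those clusters, against 12.5 (9.22 to 16.6) in endothelial-like cells. Ccny, Cdk14 and Wls had 39.6, 4.29 and 72.01 in those clusters, against 46.6, 2.86 and 57.3. In adult marrow 71.3% of targets were past 2-fold between the named classes. There 1 of 4 was higher in haematopoietic-like cells, Lef1 at 6.07 times (4.59 to 8.15), and 1 lower, Cdk14 at 0.446 times (0.240 to 0.793). The value of Cdk14 came from only 17 molecules in haematopoietic-like and 46 in endothelial-like cells. Wls had ratios of 0.651 (0.603 to 0.702), 1.21 (1.06 to 1.39) and 1.35 (1.27 to 1.44) in the 3 libraries, and Ccny 0.770 (0.695 to 0.853), 0.908 (0.780 to 1.06) and 1.76 (1.60 to 1.95), on both sides of 1 like Apc and Dvl1.

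The targets whose levels followed each member most closely were sought over the 9 named classes of at least 50 cells, among 76 targets, as a description. These classes share their libraries, depth and panel denominator, so high values are common. Axin1 had Spearman's rho of 1.0 with Myc and 0.983 with Dvl2, and Dvl2 had 0.983 with both Axin1 and Myc. Apc had 0.95 with Ccny, 0.917 with Ccnd1 and 0.883 with Hey1. Amer1 was closest to Dvl2, at 0.883, and Dvl1 to Fzd6 and Mecom, both at 0.850. Between members, rho was 0.717 for Apc with Axin1 and 0.50 for Apc with Amer1.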

How the data were processed

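Single cells were captured with the BD Rhapsody system and a targeted panel of mouse transcripts. The authors deposited, per the file headers from pipeline version 1.8, counts of raw, RSEC-adjusted and DBEC-adjusted molecules for each cell and amplicon, that is, before correction and after each of 2 corrections of errors in the molecular identifiers. The study's methods name the same targeted pipeline, run on the SevenBridges platform, in another version than the headers, and alignment to mm10. DBEC-adjusted counts were used, with the highest amplicon of a cell for Apc and Kitl. Depth was 425593, 1828756 and 6273733 molecules in the EC sort, embryonic marrow and adult marrow.

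Barcodes under 20 molecules or under 5 targets were dropped (6, 48 and 9 of them). Each library was clustered on its own from targets outside the Wnt pathway, the niche factors and the cell cycle (log-scaled, 11 principal components, 20 neighbours, Leiden at resolution 0.5, seed 1), and a cluster was named from at least 3 detected markers. No doublet caller was run. Python 3.11.15, numpy 2.4.6, scipy 1.17.1, scikit-learn 1.9.0, igraph 0.11.9 and matplotlib 3.10.9 were used. Intervals were exact: Poisson for levels, Clopper-Pearson for shares, conditional binomial for ratios, and the conditional odds ratio for folds between pairs of genes. The scripts were tested on simulated data.

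The text names the 5 genes in every class of at least 50 cells, the measured targets of a list of other intracellular Wnt components, and for each gene up to 3 targets with the closest levels; 1 target is not reported here. The members and lists were chosen with earlier results of these data known. Alternatives on the class definitions, on a denominator of other intracellular targets and on folds between pairs of genes were chosen after seeing the data. No column belonged to a sample outside the 3 libraries.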

Additional observations from a re-analysis of the deposited data

Results flagged for a closer look

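Some ratios pointed in opposite directions in libraries set side by side, and none of these differences was tested, since each group holds 1 library. The ratio of the Apc level per 10000 panel molecules between haematopoietic-like and endothelial-like cells was 1.22 in adult marrow, against 0.770 in embryonic marrow and 0.559 in the EC sort. That of Dvl1 was 1.57 in adult and 1.20 in embryonic marrow, against 0.614 in the EC sort. Amer1 had a ratio of mesenchymal-like to endothelial-like cells of 1.79 in embryonic marrow and 0.200 in adult marrow. Counted per cell, the ratios of Apc were 0.966, 1.09 and 0.958, those of Dvl1 1.25, 1.69 and 1.05, and those of Amer1 5.17 and 1.30, in the same order. With 1 library in a group, no library could be compared with others of its kind.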

How the results depend on the processing

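Ratios of levels depended on the processing, and the folds between pairs of genes that were run kept their direction. Over all alternatives run, 11 of 111 values of the summed level and 44 of 521 of single genes changed sides of 1, while none of the folds of Axin1 per Apc, Dvl2 per Dvl1 and Dvl1 per Apc did. Alternatives of the denominator cancel in such folds and were not run for them. Of the changes of sides, molecules per cell gave 3 and 14, and the denominator of 4 other intracellular targets 6 and 18. Folds of Amer1 per Apc and Dvl2 per Axin1, and stage folds other than Dvl1 per Apc, were run under no alternative. The cause of each change was not tested. Depth limits Amer1 most, with 16 molecules in the endothelial-like cells of embryonic marrow. No paired analysis was possible because each group holds 1 library and no result comes from a test, and for the same reason no replicate could be left out. Values below are given in this order where they moved beyond their interval: the summed ratio of haematopoietic-like to endothelial-like cells in embryonic marrow (1.74) and adult marrow (2.74), of mesenchymal-like to endothelial-like cells in embryonic (0.572) and adult marrow (0.135), of chondrocyte-like to endothelial-like cells (0.0686), then of adult over E18.5 in endothelial-like (0.691), haematopoietic-like (1.34) and mesenchymal-like cells (0.201).

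With molecules per cell these 8 were 2.46, 2.17, 1.65, 0.879, 2.16, 1.04, 1.08 and 0.652, of which the third, the fifth and the sixth changed sides of 1. On this scale 14 gene ratios changed sides. Against endothelial-like cells, chondrocyte-like cells gave 1.36 for Apc, 3.09 for Axin1, 1.41 for Amer1, 1.73 for Dvl1 and 5.34 for Dvl2, adult mesenchymal-like cells 1.23 for Axin1, 1.30 for Amer1 and 1.60 for Dvl2, embryonic mesenchymal-like cells 1.89 for Axin1 and 1.65 for Dvl1, and haematopoietic-like cells 1.09 and 0.966 for Apc in embryonic and adult marrow. Adult over E18.5 gave 0.918 for Axin1 in haematopoietic-like and 1.05 for Dvl1 in mesenchymal-like cells. A denominator without the 10 most abundant targets gave 2.91, 4.32, 0.623, 0.549, 0.245, 0.879, 1.61 and 0.959, with 1.29 for Apc (haematopoietic-like to endothelial-like, embryonic marrow), 1.08 for Apc (haematopoietic-like, adult over E18.5) and 1.55 for Dvl1 (mesenchymal-like, adult over E18.5) on the other side of 1.

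A denominator of 4 other intracellular targets (Ccar2, Cdc73, Gskip, Ccny), chosen after seeing the data, gave 1.13, 0.973, 1.70, 1.35, 1.17 and 1.49 for the first 6 and 1.22 for the last, of which the first alone stayed on its side of 1. Gene ratios to endothelial-like cells changed sides in adult haematopoietic-like cells (0.433 for Apc, 0.559 for Dvl1), embryonic haematopoietic-like cells (0.777 for Dvl1), embryonic mesenchymal-like cells (1.95 for Axin1, 1.70 for Dvl1), adult mesenchymal-like cells (1.9 for Axin1, 2.0 for Amer1, 1.17 for Dvl1, 2.46 for Dvl2) and chondrocyte-like cells (1.68 for Axin1, 2.90 for Dvl2). Adult over E18.5 gave 1.20 for Apc, 1.15 for Axin1, 1.09 for Amer1 and 1.14 for Dvl2 in endothelial-like and 1.07 for Apc, 1.11 for Axin1 and 1.97 for Dvl1 in mesenchymal-like cells.

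RSEC-adjusted molecules moved the first, the second, the fourth and the fifth ratio to 1.54, 2.22, 0.251 and 0.194 and the stage ratios to 0.606, 0.960 and 0.282, with 0.811 for Axin1 (haematopoietic-like, adult over E18.5), and the fold of Axin1 per Apc to 2.87, 2.73 and 3.80 in the EC sort, embryonic and adult marrow and of Dvl2 per Dvl1 to 3.24 in adult marrow. Raw molecules gave 2.41 for the second, 0.189 for the fourth and 0.13 for the fifth ratio, 1.11 and 0.25 for the haematopoietic-like and mesenchymal-like stage ratios and 0.921 for Axin1 in the former. Their folds were 3.35, 3.14 and 4.11 for Axin1 per Apc, 3.28 for Dvl2 per Dvl1 in adult marrow and 1.37 for Dvl1 per Apc between stages in endothelial-like cells. Summed Apc amplicons gave 1.51, 2.49, 0.50 and 0.126 for the first 4 ratios and 0.645 and 1.27 for the endothelial-like and haematopoietic-like stage ratios. With 20 principal components the first ratio was 1.27, the stage ratios 0.633 and 1.82, that of Apc 1.16 in haematopoietic-like cells, the fold of Dvl2 per Dvl1 in embryonic marrow 1.55 and that of Dvl1 per Apc in haematopoietic-like cells 2.08. A Leiden resolution of 1.0 gave 0.651 and 1.44 for the same stage ratios.

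Classes from the marker molecules of each cell gave 4.0 for the second ratio, 0.633, 0.210 and 0.113 for the stromal ones, 0.408, 1.18 and 0.168 for the stage ratios, 0.983 for Axin1 (haematopoietic-like, adult over E18.5), 3.22 and 3.93 for Axin1 per Apc in embryonic and adult marrow, and 2.12 and 2.23 for Dvl1 per Apc between stages in endothelial-like and mesenchymal-like cells. Without the deepest 5% of cells the first ratio was 2.10, the stromal ones 0.658, 0.223 and 0.0811, the haematopoietic-like and mesenchymal-like stage ratios 1.11 and 0.290, and Axin1 in the former 0.934. Leaving out cells with 3 or more marker molecules of a second class, which removed 64.6%, 68.8% and 89.3% of cells and every chondrocyte-like cell, gave 2.05 and 2.08 for the first ratios, 0.802, 1.22 and 0.270 for the stage ratios and 0.870 for Axin1 in haematopoietic-like cells. Its folds were 5.45 and 2.02 for Axin1 per Apc in embryonic and adult marrow, 3.40 and 12.1 for Dvl2 per Dvl1 in the EC sort and adult marrow, and 2.18 for Dvl1 per Apc between stages in endothelial-like cells. Of the class changes chosen after seeing the data, leaving out osteoclast-like clusters moved these values: the first ratio was 2.59 and the haematopoietic-like stage ratio 0.903, with Apc at 1.14 in the former, Axin1 at 0.750 and Dvl2 at 0.893 in the latter and Dvl1 per Apc between stages at 2.63. Without the adult endothelial-like cluster led by Srgn the second, the fourth and the sixth ratio were 2.59, 0.128 and 0.730.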
